A study of Mus musculus with 17 samples.

Results

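The 211 genomic sites described here lost their CHD7 peak when the leukaemia fusion protein CBFB-MYH11 (CM) was induced in the 416B line of mouse myeloid progenitors. Peaks of the 8 CHD7 libraries that overlapped by at least 1 bp were merged into 85223 sites. A site was kept as lost when all 6 CHD7 libraries without CM called it and neither of the 2 libraries with CM did. Of the 5775 sites that all 6 called, 211 (3.65%) met that rule, 712 were called in 1 of the 2 CM libraries and 4852 in both. The members were thus chosen by the measured CHD7 calls, and the absence of CHD7 with CM is how the sites were chosen and not a result. The RUNX1 calls, the genes nearby and the sequences were not used by the rule.

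The cells carried a doxycycline-inducible Cbfb-Myh11 (CM) type A cDNA joined to the red fluorescent protein mCherry, or the same plasmid lacking CM (Control), together with a plasmid for the tetracycline regulators under an Ef1alpha promoter. Per the labels' protocols both were stably integrated and single cells were grown into clones, so a difference between the fusion and control lines can also be a difference between clones. There were 4 conditions with 2 replicates of each antibody. CM +Dox had the fusion construct and doxycycline at 1 µg/ml for 24 hours, CM -Dox the construct without doxycycline, Control +Dox the vector with the same doxycycline, and Control -Dox the vector alone. Only CM +Dox is meant to express the fusion, so the other 3 conditions are called the libraries without CM. The labels do not say whether replicates were separate cultures, so the p-values below reflect the spread of these libraries alone, and that spread may be technical. Each list of ChIP-seq peaks, DNA stretches enriched by an antibody, came from 1 library. Lists held 31688 to 33462 CHD7 peaks in CM +Dox and 16323 to 37698 in the others. RUNX1 lists held 8140 and 9710 peaks in CM +Dox and 12603 to 16163 in the others. Read depth is unknown. In 1 list, labelled Control -Dox RUNX1 replicate 1, a +Dox tag in the names of the peaks contradicts the label. The labelled group was used, and the tested differences are also given without it.

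CHD7 is an ATP-dependent chromatin remodeller of the chromodomain helicase family, best known because mutation of its human gene causes CHARGE syndrome, and it has been found in a complex with RUNX1. RUNX1 is a transcription factor that binds DNA with its partner CBFB and is needed to form blood stem cells. CM joins most of CBFB to the tail of a smooth muscle myosin. It still binds RUNX1 and is the product of the chromosome 16 inversion of acute myeloid leukaemia.

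Of the 211 lost sites, 20 overlapped the promoter of a gene in a RefSeq table of the GRCm38.p6 assembly, the build that mm10 denotes. Each promoter window runs from 250 bases before to 50 after an annotated transcript start, and a gene can have several starts, of which that of Spn printed here lies inside the gene. The table also holds non-coding genes, and the 20 sites met 24 such windows of 23 genes. Those of 5 genes are printed 5′ to 3′ on the strand of the gene, in lower case with the RUNX words in capitals, because they show 3 of the RUNX1 patterns of the lost sites: lost with CHD7, called in every library, and called in none. The words searched were TGTGGT and TGCGGT on both strands, so that the capitals can also show their reverse complements. Il12rb2 encodes an interleukin 12 receptor chain and Pigu a part of the enzyme that attaches GPI anchors. At the sites over these promoters (Il12rb2, window chr6:67376139-67376438, minus strand; Pigu, window chr2:155357375-155357674, minus strand) each of the 6 libraries without CM called RUNX1 and neither CM +Dox library did. Spn encodes the leukocyte sialoglycoprotein CD43 and Taok2 a protein kinase. At the sites over their promoters (Spn, window chr7:127137774-127138073; Taok2, window chr7:126884918-126885217; both minus strand) RUNX1 was called in all 8 libraries. Shmt2 encodes the mitochondrial serine hydroxymethyltransferase, and at the site over its promoter (window chr10:127522395-127522694, minus strand) no library called RUNX1.
Il12rb2: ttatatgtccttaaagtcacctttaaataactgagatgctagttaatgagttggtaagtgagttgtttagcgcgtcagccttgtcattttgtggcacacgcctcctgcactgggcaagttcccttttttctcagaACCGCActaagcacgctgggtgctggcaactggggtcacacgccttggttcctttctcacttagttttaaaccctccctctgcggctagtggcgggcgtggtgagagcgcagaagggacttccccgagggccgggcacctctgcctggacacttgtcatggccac
Pigu: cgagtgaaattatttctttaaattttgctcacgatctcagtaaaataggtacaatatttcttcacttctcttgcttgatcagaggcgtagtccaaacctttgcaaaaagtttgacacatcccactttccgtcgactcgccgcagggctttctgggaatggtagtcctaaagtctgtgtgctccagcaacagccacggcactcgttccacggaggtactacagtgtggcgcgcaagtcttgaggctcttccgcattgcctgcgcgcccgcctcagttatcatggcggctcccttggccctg
Spn: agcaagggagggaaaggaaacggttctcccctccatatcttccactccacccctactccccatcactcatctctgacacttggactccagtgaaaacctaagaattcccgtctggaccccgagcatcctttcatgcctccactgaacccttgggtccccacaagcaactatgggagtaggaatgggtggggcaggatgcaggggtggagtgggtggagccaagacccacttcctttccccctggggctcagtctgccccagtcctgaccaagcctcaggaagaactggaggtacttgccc
Taok2: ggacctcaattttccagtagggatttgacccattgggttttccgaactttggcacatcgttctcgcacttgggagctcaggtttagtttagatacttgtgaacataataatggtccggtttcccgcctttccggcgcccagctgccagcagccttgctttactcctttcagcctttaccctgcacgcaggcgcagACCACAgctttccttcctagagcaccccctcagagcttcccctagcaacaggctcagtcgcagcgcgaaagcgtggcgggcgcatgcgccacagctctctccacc
Shmt2: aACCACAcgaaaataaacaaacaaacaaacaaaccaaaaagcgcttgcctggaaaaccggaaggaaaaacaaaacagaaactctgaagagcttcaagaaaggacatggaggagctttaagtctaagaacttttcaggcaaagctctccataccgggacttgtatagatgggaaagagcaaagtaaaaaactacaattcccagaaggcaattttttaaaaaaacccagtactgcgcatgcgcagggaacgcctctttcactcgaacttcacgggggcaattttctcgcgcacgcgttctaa
The words began at position -115 from the transcript start in Il12rb2, -55 in Taok2 and -249 in Shmt2, and neither word was in the Pigu or Spn window. Among the 24 windows, some of which overlap each other at 1 site and share sequence, 7 held a RUNX word (29.2%), against 22.4% of the 32544 distinct windows of the table. The word GATAA, bound by GATA factors, was in 29.2% of the 24 windows against 25.3% of all. GGAA, the ETS core, was in 100% against 96.0%. The E-box CANNTG was in 54.2% against 72.3%, and the AP-1 word TGANTCA in 8.33% against 7.79%. All were searched on both strands. Each word was searched on its own, so different words can share letters. A word is a run of letters, not a binding site. Most lost sites lay outside the windows, and their own sequence was not read because a genome was not used here.

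At the lost CHD7 sites RUNX1 peaks were also far fewer with CM. RUNX1 was called at 34.6% and 41.7% of the 211 sites in CM +Dox replicates 1 and 2. The corresponding shares were 76.3% and 80.1% in CM -Dox, 79.1% and 77.7% in Control +Dox, and 81.0% and 80.6% in Control -Dox. Both CM +Dox libraries lay below all 6 others, and the 6 lay within 5 percentage points of each other. The mean share was 38.2% ± 5.03 (SD, n = 2) in CM +Dox and 79.1% ± 1.82 (n = 6) in the libraries without CM. The difference of -41.0 percentage points was larger than the SD of either group. A two-sided exact permutation test over the 28 choices of 2 of 8 libraries gave p = 0.0357, the smallest this design allows. The value after Benjamini-Hochberg adjustment over 3 tests was also 0.0357. Any full separation of 2 from 6 libraries gives that p, so it does not measure the size of the gap. The test treats the 6 libraries as interchangeable, though they differ in line and doxycycline. With the replicate number as a block the difference had p = 0.0625 (exact permutation test over 16 choices, the smallest possible). It was -44.2 within replicate 1 and -37.8 within replicate 2. Without the library whose tag goes against its label it was -40.6 (exact permutation test, p = 0.0476). With lists cut to equal length, 16323 peaks for CHD7 and 8140 for RUNX1, 303 sites met the rule and the difference was -25.5 (exact permutation test, p = 0.0357).

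Doxycycline itself was set against the fusion by comparing +Dox with -Dox in each line. At the lost sites the RUNX1 share was -40.05 percentage points different with doxycycline in the fusion line and -2.37 in the control line. The difference between those effects, -37.7, cannot pass 0.05 in this design (exact permutation test within each line, 36 arrangements, p = 0.333, smallest possible 0.0556). The test thus cannot decide whether the effects in the lines differ.

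**Figure D1:**
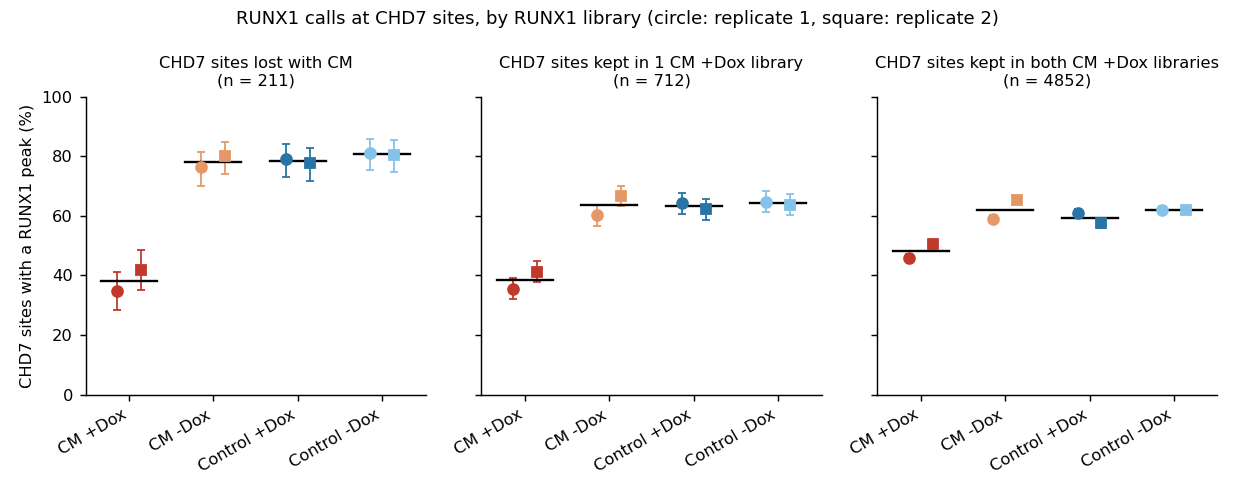
Share of CHD7 sites with a RUNX1 peak, in percent, in each RUNX1 library, for sites lost with CM, called in 1 CM +Dox library, or called in both. Circles are replicate 1 and squares replicate 2, bars are Wilson 95% intervals and lines are condition means. At the lost sites the CM +Dox libraries sit at 34.6% and 41.7% and the others between 76.3% and 81.0%, while at sites kept in both the gap is smaller and, with lists of equal length, turns to 6.01 points higher in CM +Dox.

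The same measure at CHD7 sites that kept their peak shows how far the lost sites stand apart. At the 4852 sites called in all 8 CHD7 libraries, RUNX1 was called at 45.8% and 50.4% in CM +Dox and at 57.5% to 65.2% in the libraries without CM. The means were 48.1% ± 3.29 (n = 2) in CM +Dox and 61.1% ± 2.68 (n = 6) in the others. The difference between them was -13.0 percentage points (exact permutation, p = 0.0357, adjusted p = 0.0357). The direction at these kept sites was not stable. With the lists of both antibodies cut to equal length, which left 2796 sites called in all 8, the difference was 6.01 in the other direction. At the 712 sites called in 1 CM +Dox library the shares were 38.3% ± 4.17 (n = 2) in CM +Dox and 63.7% ± 2.22 (n = 6) in the other libraries. At the 341 sites just outside the rule on its other side, called in 5 of the 6 libraries without CM and in neither with it, they were 21.7% ± 3.32 (n = 2) and 59.3% ± 2.61 (n = 6).

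The lost and kept sites were compared within each RUNX1 library by the odds of a RUNX1 peak at lost sites over those at sites called in all 8. This log2 odds ratio does not move when a longer or shorter list changes the odds at both kinds of site by the same factor. It was -0.67 and -0.50 in CM +Dox, and 1.09 to 1.38 in the 6 libraries without CM. Its sign was thus opposite, with RUNX1 less frequent at lost than at kept sites in CM +Dox and more frequent in every library without CM. The higher frequency without CM did not extend to the 341 sites called in 5 of the 6 libraries. There the mean share without CM was 59.3%, against 61.1% at kept sites. The means of -0.59 ± 0.12 (n = 2) in CM +Dox and 1.26 ± 0.12 (n = 6) in the others differed by -1.85 (exact permutation test, p = 0.0357, adjusted p = 0.0357). It was -1.86 with lists of equal length and -1.83 (exact permutation test, p = 0.0476) without the library with the mismatched tag. Against kept sites in the middle range of CHD7 rank of the lost ones it was -1.83. The choice of sites rested on both CM +Dox CHD7 libraries. Without replicate 2 of them 793 sites met the rule and the difference was -0.82, and without replicate 1 the values were 355 sites and -1.60.

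Most lost sites carried a RUNX1 peak in the libraries without CM. All 6 libraries without CM called it at 152 of the 211 lost sites (72.0%, Wilson 95% interval 65.6% to 77.7%), against 52.1% of the sites kept in 1 CM +Dox library and 46.9% (45.5% to 48.3%) of those kept in both. Of those 152, RUNX1 too was lost at 62, called in 1 CM +Dox library at 25 and in both at 65. RUNX1 was called in no library at 27 lost sites (12.8%) and in some of the 6 at 32. These intervals cover counting error only, and shares between kinds of site carry no test here.

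RUNX1 was lost at 62 of the 152 sites (40.8%, 33.3% to 48.7%), where lost means no call in either CM +Dox library. The share was 26.7% (22.4% to 31.4%) of the 371 such sites with CHD7 kept in 1 library and 12.1% (10.8% to 13.5%) of the 2275 with CHD7 kept in both. Over all 2798 CHD7 sites with RUNX1 in all 6 libraries it was 15.6%, and over all 8531 RUNX1 sites called in all 6 it was 27.9%.

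**Figure D2:**
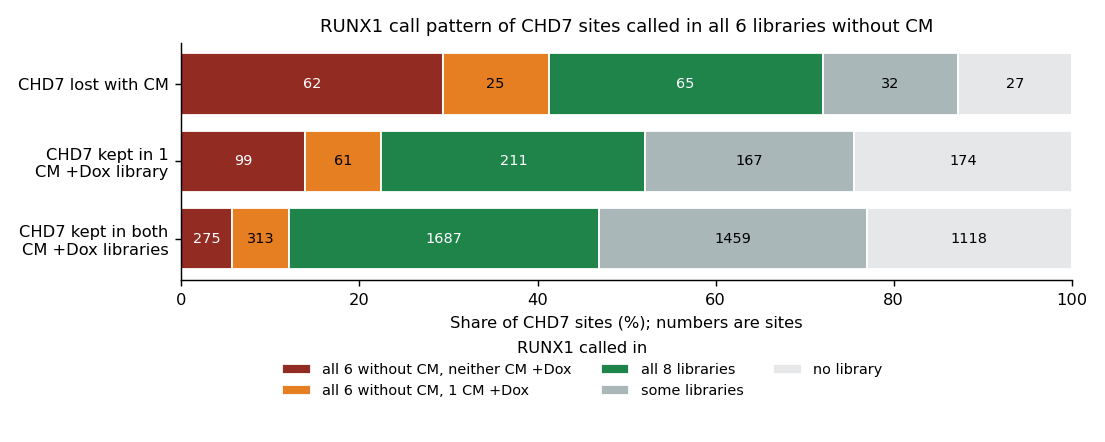
Share of CHD7 sites, in percent, in each RUNX1 calling pattern, for sites lost with CM, called in 1 CM +Dox library, or called in both. Sites where RUNX1 too had a call in every library but those of CM +Dox make up 29.4% of the lost sites.

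The 152 lost sites with RUNX1 in all 6 libraries without CM were places of strong RUNX1 peaks. Peaks were ranked within each list by the authors' score, with 100 the highest percentile. At sites with RUNX1 in all 6 libraries without CM, the median of the mean RUNX1 rank was 92.1 at lost sites, 74.1 where CHD7 was kept in 1 library and 68.8 where it was kept in both. All such sites were put into 3 bins of equal size by RUNX1 rank. The top bin, above rank 83.4, held 101 of the 152 lost sites (66.4%, 58.6% to 73.5%). It held 39.6% (34.8% to 44.7%) of the sites kept in 1 CM +Dox library and 30.1% (28.3% to 32.0%) of those kept in both.

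Within each bin of RUNX1 rank, the share of sites that lost RUNX1 was higher at the lost CHD7 sites than at the kept ones. In the lowest bin RUNX1 was lost at 13 of 18 lost CHD7 sites (72.2%), against 23.1% of 802 sites that kept CHD7 in both CM +Dox libraries. In the middle bin it was lost at 18 of 33 (54.5%) against 9.39% of 788. In the top bin it was lost at 31 of 101 (30.7%) against 2.34% of 685. At sites that kept CHD7 in 1 CM +Dox library the shares lay in between. They were 36.3% of 113, 31.5% of 111 and 15.6% of 147 from the lowest to the top bin. The share with RUNX1 lost was thus smaller in each higher bin of RUNX1 rank, at each kind of site. Sites were also binned by CHD7 rank in place of RUNX1 rank. The shares at lost sites were then 42.4% of 85 in the lowest bin, 41.5% of 53 in the middle and 28.6% of 14 in the top. They were 27.4%, 25.8% and 26.4% at sites kept in 1 CM +Dox library and 15.1%, 11.1% and 10.6% at sites kept in both. In the top CHD7 bin the intervals of lost sites (11.7% to 54.6%) and of sites kept in 1 library (16.4% to 39.6%) overlapped widely. The lowest RUNX1 bin and the top CHD7 bin each hold under 20 lost sites.

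**Figure D3:**
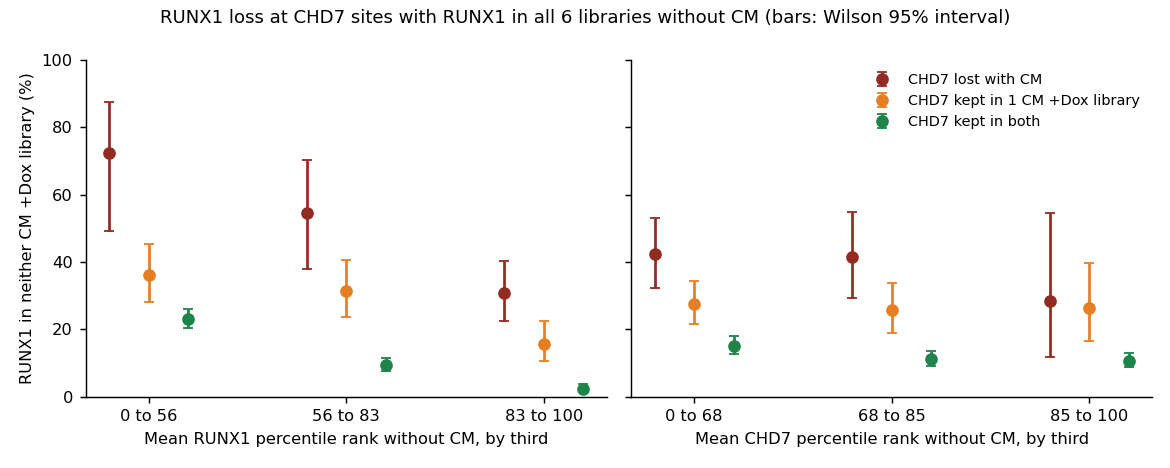
Share of sites, in percent, at which RUNX1 was lost with CM, by bin of mean RUNX1 rank (left) or mean CHD7 rank (right), for CHD7 sites lost with CM, called in 1 CM +Dox library, or called in both. Bars are Wilson 95% intervals. By RUNX1 rank, loss is 72.2%, 54.5% and 30.7% at lost CHD7 sites from the lowest to the top bin. It is 36.3%, 31.5% and 15.6% where CHD7 was called in 1 CM +Dox library, and 23.1%, 9.39% and 2.34% where it was called in both.

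Where RUNX1 stayed, its peaks ranked lower with CM. At the 65 lost CHD7 sites with RUNX1 in all 8 libraries the median RUNX1 percentile rank was 56.2 and 72.3 in CM +Dox, against 95.7 and 95.6 in CM -Dox, 96.1 and 95.1 in Control +Dox, and 96.1 and 95.8 in Control -Dox. Ranks from lists of different length show no change by themselves, so the 1687 sites with both proteins in all 8 libraries were ranked in the same lists. Their medians were 62.3 and 72.8 in CM +Dox and 73.9 to 81.2 in the other 6. Lost minus kept sites gave -6.15 and -0.48 in CM +Dox and 14.4 to 21.2 in the libraries without CM. The means of -3.32 ± 4.01 (n = 2) in CM +Dox and 18.3 ± 2.19 (n = 6) in the others differed by -21.6 rank points (exact permutation test, p = 0.0357, adjusted p = 0.0357 over 4 tests). This comparison was chosen after the data had been seen. Without CM +Dox CHD7 replicate 2, which changes the lost sites, it was -10.1, and without replicate 1 -18.3. Without the library with the mismatched tag the difference was -21.7 (exact permutation test, p = 0.0476). Both CM +Dox ranks were under those of all 6 other libraries at 49 of the 65 lost sites (75.4%, 63.7% to 84.2%), against 44.1% of 211 sites kept in 1 library and 30.3% of 1687 kept in both. Over all 1963 sites with RUNX1 in all 8 libraries it was 33.3%.

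RUNX1 and CHD7 peaks lay close together at the lost sites. The median distance between peak centres was 83 to 101.5 bp over the 6 libraries without CM, and 78.9% to 88.8% of pairs lay within 200 bp. At sites that kept CHD7 in 1 CM +Dox library the medians were 84.25 to 116 bp, and 73.1% to 79.7% lay within 200 bp. These ranges overlap those of the lost sites. At sites that kept CHD7 in both CM +Dox libraries the medians were 110.5 to 134 bp, and 62.8% to 69.5% lay within 200 bp. The lost sites were also narrower than the kept ones, with a median width of 872 bp (range 357 to 2240). The median was 931.5 bp at sites kept in 1 CM +Dox library and 1173 bp at those kept in both. A narrower site leaves less room between centres.

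The highest-ranked lost sites show the patterns one by one. They were ordered by the mean percentile rank of their CHD7 score over the 6 libraries that called them, and coordinates are those of mm10. Positions inside genes are given without exon, intron or UTR, which the gene table used here does not hold.

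The top site lay in B4galnt2, a glycosyltransferase gene (chr11:95875744-95876100), with a mean CHD7 rank of 96.2 and no RUNX1 peak in any library. A CHD7 peak of CM +Dox replicate 2 lay 268 bp away from it. Next came a site 13.3 kb from Olfm3, which encodes a secreted olfactomedin-domain protein (chr3:114889625-114890770, mean CHD7 rank 94.7). Its RUNX1 peak ranked 66.3 in CM +Dox replicate 1 and was absent in replicate 2, against 100, 99.99, 99.98, 99.98, 100 and 100 in the libraries without CM. It was thus among the highest RUNX1 peaks of every list but those of CM +Dox.

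Glrx encodes glutaredoxin, which reduces proteins with glutathione. The site 22.1 kb from it (chr13:75816934-75817763) had CHD7 ranks of 89.2 and 85.9 in CM -Dox, 88.9 and 89.4 in Control +Dox, and 93.6 and 85.1 in Control -Dox. RUNX1 had no peak there in CM +Dox, against ranks of 93.9 and 91.7 in CM -Dox, 92.8 and 86.0 in Control +Dox, and 90.2 and 85.1 in Control -Dox. Both proteins were thus called in every library without CM and in none with it. Was encodes the actin regulator mutated in Wiskott-Aldrich syndrome. The site 11.4 kb from it (chrX:8101876-8102848) had CHD7 ranks of 91.8 and 94.5 in CM -Dox, 82.9 and 94.4 in Control +Dox, and 74.0 and 89.1 in Control -Dox. RUNX1 again had no peak in CM +Dox, against ranks of 83.9 to 93.2 in the libraries without CM.

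The 8 highest-ranked sites that lost both proteins lay, besides Glrx and Was, in or nearest to 6 other genes. Eea1, an early endosome protein, was 158 kb away from its site, and a CHD7 peak of CM +Dox replicate 1 lay 65 bp from that site. Dock10 held its site in the gene body (chr1:80605737-80606888). The cytokine gene Il6 was 111 kb from the next. Prkacb, a catalytic subunit of protein kinase A, held one in its body, and there RUNX1 ranked only 4.77 to 54.1 in the libraries without CM. At the sites near the peptidase gene Nln (9.97 kb) and the kinase gene Map4k3 (43.6 kb) RUNX1 ranked 98.1 to 99.4 and 98.7 to 99.1 in those libraries. So both low-ranked and high-ranked RUNX1 peaks were among those without a call in CM +Dox.

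At other high-ranked lost sites RUNX1 kept a peak of lower rank. Ptpn1 encodes a tyrosine phosphatase that acts on insulin and cytokine signalling. At the site 89.9 kb from it (chr2:167840305-167840822) RUNX1 ranked 74.4 and 74.5 in CM +Dox, against 98.8 and 99.1 in CM -Dox, 99.6 and 99.5 in Control +Dox, and 99.3 and 99.6 in Control -Dox. In Gtf2i, the gene of the transcription factor TFII-I (chr5:134269418-134270293), the ranks were 60.6 and 62.3 in CM +Dox against 98.9 to 99.7 in the others. In Evi5, a Rab-GTPase regulator, they were 72.4 and 76.2 against 99.7 to 99.99. The site 0.372 kb from 4930503B20Rik had RUNX1 ranks of 82.3 and 82.5 in CM +Dox against 98.2 to 99.4 without CM. The CM +Dox libraries were the lowest at each of these 4 sites. In Stpg2 the ranks were 37.1 and 66.2 in CM +Dox against 88.7 to 93.3 without CM, and in Stard9, a kinesin gene, RUNX1 had no call in CM +Dox replicate 1 and a rank of 24.0 in replicate 2, against 82.7 to 97.1 without CM.

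The site in Mmp9, the gene of a gelatinase of neutrophil granules (chr2:164942706-164943447), differed. Its CHD7 ranks were 92.3 and 72.4 in CM -Dox, 87.7 and 96.2 in Control +Dox, and 88.6 and 82.7 in Control -Dox. RUNX1 ranked 99.6 and 99.8 in CM +Dox, against 99.0 and 99.5 in CM -Dox, 99.6 and 99.4 in Control +Dox, and 99.5 and 99.6 in Control -Dox. RUNX1 thus stayed at the top of every list where the CHD7 call was lost. The site 17.4 kb from Wfdc2, which encodes a secreted whey acidic protein, was similar, with RUNX1 ranks of 92.7 and 96.7 in CM +Dox and 93.4 to 95.6 in the others. At the site 462 kb from the connexin gene Gja1 the ranks were 86.0 and 90.9 in CM +Dox against 98.9 to 99.4 without CM.

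Sites that lacked RUNX1 in every library were, after B4galnt2, nearest to Parp11 (an ADP-ribosyltransferase, 126 kb), in Diaph1 (an actin-nucleating formin), nearest to Ppm1k (a mitochondrial phosphatase, 6.42 kb) and Litaf (15.4 kb), and in Runx1. Litaf is the nearest protein-coding gene, but that site covers the promoter window of the long non-coding RNA gene Gm4262. The Diaph1 site had CHD7 peaks of both CM +Dox libraries 296 and 383 bp away. Of the 27 such sites 33.3% lay within 1 kb of a gene end, against 34.4% of the 32 with RUNX1 in some libraries, 11.3% of the 62 that lost both proteins, 3 of the 25 with RUNX1 kept in 1 CM +Dox library and 13.8% of the 65 with RUNX1 in all 8.

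**Figure D4:**
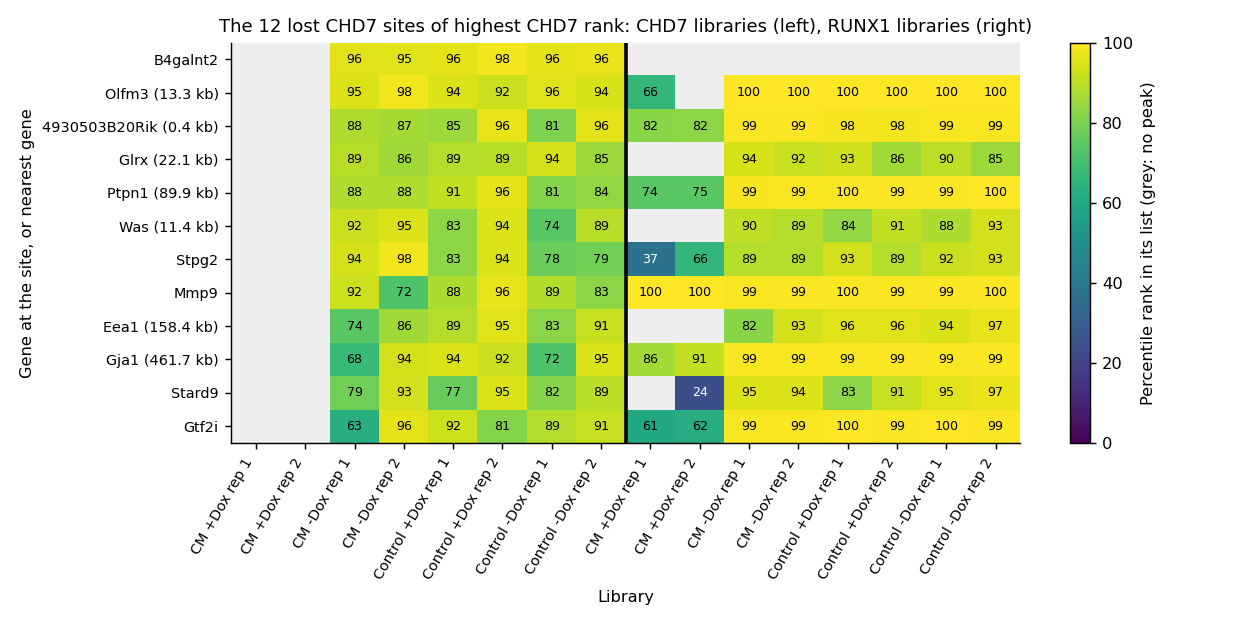
Percentile rank of the CHD7 peak (left block) and of the RUNX1 peak (right block) in each library at the 12 highest-ranked lost CHD7 sites, named by gene. Colour runs to 100, the highest peak of a list, and grey is no peak. CHD7 is grey in both CM +Dox columns at every site because the rule requires it, while RUNX1 there ranges from no peak, as at Glrx and Was, to 99.6 and 99.8 at Mmp9.

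Runx1 was the only gene with 2 lost sites in its body or within 5 kb, out of 4 CHD7 sites that all 6 libraries called there. They lay 5.21 and 3.55 kb inside the gene boundary of higher coordinate, 92826074, and 0.606 kb apart. The first (chr16:92820442-92820868) had CHD7 ranks of 79.6 and 63.1 in CM -Dox, 77.8 and 90.5 in Control +Dox, and 72.9 and 61.2 in Control -Dox, and no RUNX1 peak. The second (chr16:92821475-92822521) had CHD7 ranks of 51.9 and 65.5 in CM -Dox, 38.9 and 93.2 in Control +Dox, and 83.5 and 82.2 in Control -Dox. There RUNX1 had no peak in CM +Dox, against ranks of 95.3 and 93.5 in CM -Dox, 97.1 and 98.1 in Control +Dox, and 98.3 and 98.4 in Control -Dox. Neighbouring sites of the same gene thus differed in RUNX1. The other 2 sites of Runx1 (chr16:92620692-92621581 and chr16:92800488-92801945) were each called in 1 CM +Dox CHD7 library and in all 8 RUNX1 libraries. Pairs of lost sites within 50 kb were found only at Runx1, Zfp217 (44.3 kb apart) and Nln (35.3 kb).

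Lost sites were then counted at genes of lists that cover blood cell functions and other processes. A lost site lay in or within 5 kb of 162 of 21883 protein-coding genes (0.740%), and of 4.01% of the 4036 genes with a CHD7 site that all 6 libraries called. Of 224 genes in 10 lists, 71 had such a site and 4 had a lost one. They were Runx1 (1 of 26 haematopoietic transcription factors, 11 with a site), Mmp9 (1 of 30 myeloid effector genes, 4 with a site), Rab27b (1 of 18 megakaryocyte and mast cell genes, 8 with a site) and Dock2 (1 of 23 actin, adhesion and migration genes, 11 with a site). Was is in 2 of the lists, but its site lies beyond 5 kb and was not counted. No lost site was found for 35 signalling genes (19 with a site), 22 chromatin remodellers (10), 20 neural crest and CHARGE-related genes (1), 20 cell cycle genes (4), 20 lymphoid genes (3) or 12 liver genes (0). The 4 genes are 1.79% of the 224 and 5.63% of the 71 with a site, against 0.740% and 4.01% over all genes. These counts are too small to tell the lists apart from all genes, and they carry no test. The lists were also chosen with earlier results of these data known, so their shares are not independent of the data.

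Rab27b encodes a GTPase of secretory granules, and its lost site lost both proteins. A further CHD7 site of Rab27b kept its call in 1 CM +Dox library. Dock2 encodes a Rac activator that drives leukocyte migration. At its lost site, which also lies in Insyn2b (chr11:34395313-34396459), RUNX1 was absent in CM +Dox replicate 1 and ranked 39.9 in replicate 2. In the libraries without CM it ranked 80.1 and 86.7 in CM -Dox, 68.1 and 81.8 in Control +Dox, and 60.1 and 72.4 in Control -Dox. The other 3 CHD7 sites of Dock2 were called in both CM +Dox libraries, so the loss touched 1 of 4 sites in that gene.

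The lost sites lay farther from gene ends than the kept ones. Of the 211, 39 came within 1 kb of a gene's start or end (18.5%, Wilson 95% interval 13.8% to 24.3%), against 25.6% of sites kept in 1 CM +Dox library and 37.6% (36.2% to 38.9%) of those kept in both. At the 341 sites called in 5 of the 6 libraries without CM and in neither with it, the share was 16.1% and the median width 736 bp, both below those of the lost sites. The median distance to a gene end was 16.4 kb at lost sites, 8.73 kb at sites kept in 1 CM +Dox library and 5.30 kb at those kept in both. In genes lay 110 lost sites (52.1%), against 61.8% of sites kept in 1 CM +Dox library and 66.4% of those kept in both. A promoter window was overlapped by 20 of 207 lost sites outside chromosome 18, which the promoter table does not cover (9.66%, 6.34% to 14.5%). The share was 20.6% at sites kept in 1 CM +Dox library and 31.7% at those kept in both. With gene-end sites left out of both classes the RUNX1 log2 odds ratio differed by -2.28 between CM +Dox and the libraries without CM, against -1.85 with them (exact permutation test, p = 0.0357 for both).

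As a description of what the rule selected, the CHD7 peaks at the lost sites had median ranks above the middle of each list. Their median percentile rank was 57.5 and 79.5 in CM -Dox, 63.9 and 78.7 in Control +Dox, and 61.3 and 70.3 in Control -Dox. By the authors' score, a −log10 p-value, the medians were 3.81 to 5.59 over these libraries and the lowest values 2.03 to 2.25. The CHD7 lists were cut at p of 0.01. At sites kept in both CM +Dox libraries the medians without CM were 4.67 to 7.55. How far a signal fell where no peak was called was not measured. The mean rank per lost site ran from 24.4 to 96.2 with a median of 62.0. The median was 64.3 at sites kept in 1 CM +Dox library, close to that of the lost sites, and 74.6 at sites kept in both. The 4 highest-ranked sites just outside the rule, each called in 1 CM +Dox library, were in Fam118a (97.1), Plekhm3 (96.6), Akt1 (96.5) and Pibf1 (96.2), as high as the top site inside it.

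**Figure D5:**
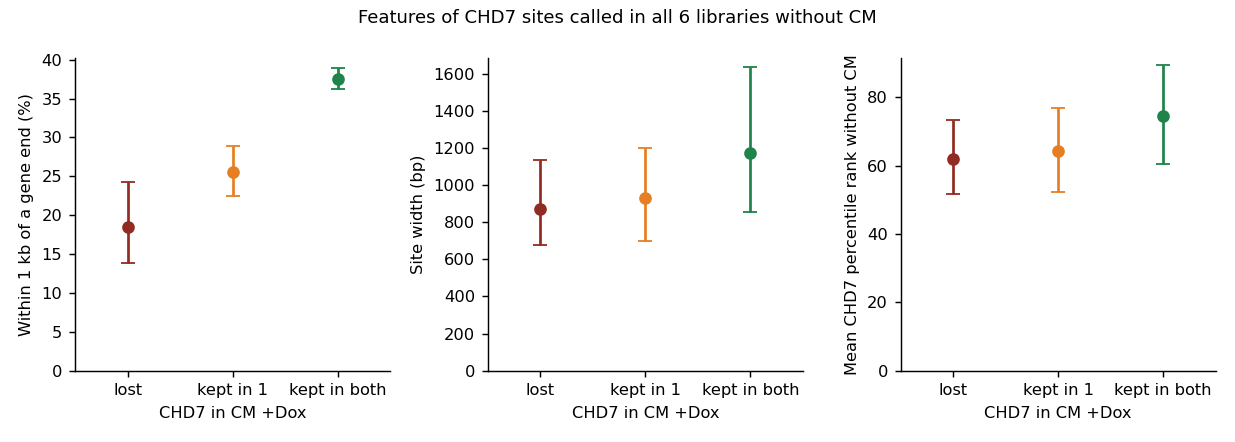
Share of sites within 1 kb of a gene end (percent, Wilson 95% intervals), site width (bp) and mean CHD7 percentile rank (medians with quartiles) for sites lost with CM, called in 1 CM +Dox library, or called in both. Of these 3 classes, lost sites have the lowest share at gene ends (18.5%), the smallest median width (872 bp) and the lowest median rank (62.0).

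A lost call did not always mean an empty neighbourhood. A CHD7 peak of a CM +Dox library lay within 1 kb of 37 of the 211 lost sites (17.5%), 20 of them in replicate 1 and 29 in replicate 2. Within 5 kb there were 105, and 23 lost sites were more than 50 kb from any. The median distance to the nearest such peak was 5.03 kb, and to the nearest CHD7 site called in all 8 libraries 59.6 kb.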

How the data were processed

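ChIP-seq peak lists of 16 libraries were used, 8 for CHD7 and 8 for RUNX1; values of the IgG sample were not analysed here. Per the submitters' processing notes, Bowtie2 2.0.6, MACS2 2.0.10 and the mm10 build were used; what served as background in the calls, how reads were filtered, and depth were not given in the sources used here. Scores of peaks, as the authors deposited them, are −log10 p-values: in every list the minimum is just over the threshold that the peak names carry (p of 0.01 in the CHD7 lists, 1e-09 in 5 and 1e-07 in 3 RUNX1 lists). Scores served for ranks, medians and cuts to equal length inside 1 list at a time. Other filters put 1 common score on all lists of an antibody, the pooled median of the CHD7 lists (3.81) or the RUNX1 threshold of 1e-09.

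Peaks of chromosomes 1 to 19, X and Y (not the mitochondrial genome) were merged per antibody at an overlap of 1 bp, and a site was called in a library whose peak overlapped it. RUNX1 peaks overlapping a CHD7 site by 1 bp counted as present. Tests used 1 value per library (exact permutation over 28 choices, Benjamini-Hochberg adjustment over 3 tests, or 4 with the rank comparison); 0.5 was added to each count of the odds ratio. Wilson 95% intervals cover counting error only. Scripts ran in Python 3.11.15 with numpy 2.4.6, scipy 1.17.1 and pandas 2.3.3 and were tested on simulated data.

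Gene positions came from the RefSeq table of GRCm38.p6 with 21883 protein-coding genes; 224 of 226 list genes matched, and promoters from its table of 32851 windows. The gene of a site is the one it lies in, else the nearest. Sites were named by rule: the 12 highest by mean CHD7 rank, the 8 highest with RUNX1 lost, the 8 with RUNX1 in all 8 libraries, the 6 with none, genes with 2 or more lost sites, genes of the lists, promoters, and the 4 highest just outside. The members and lists were chosen with earlier results of these data known.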

Additional observations from a re-analysis of the deposited data

How the results depend on the processing

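Of 91 alternatives of the 4 tested differences, 90 kept the direction and 78 of these stayed past the threshold. The alternatives share most of their libraries, and each p was the smallest its setting allows. The count past the threshold thus only tells which settings could pass 0.05. The reversal was at CHD7 sites called in all 8 libraries, where the RUNX1 share differed by 6.01 percentage points with the lists of both antibodies cut to equal length (exact permutation test, p = 0.0357); the cause was not tested. Leaving out a library in turn gave -44.5 to -27.1 percentage points at lost sites, -15.3 to -10.7 at kept sites, -1.93 to -0.82 for the log2 odds ratio and -26.5 to -10.1 for the rank difference. Without a CM +Dox RUNX1 library the smallest exact permutation p is 0.143, so these cannot pass 0.05. With the replicate number as a block the differences were -41.0, -13.0, -1.85 and -21.6 (exact permutation test over 16 choices, p = 0.0625 for each, the smallest possible). Same-numbered replicates deviated together with correlations of 0.189 to 0.413 across 5775 sites, which is a hint from the data and not the design.

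The number of lost sites was 107 with only CHD7 peaks that reach the pooled median score and 238 to 793 leaving out a library (355 without CM +Dox replicate 1, 793 without replicate 2, 336 without CM -Dox replicate 1). The share with a merged RUNX1 site that the 6 libraries without CM all call was 80.4% at the median score, 57.8% at equal length and 57.4% to 73.9% leaving out a library, against 73.0%. RUNX1 was lost at 31.8% of these at equal length and 28.7% to 53.9% leaving out a library. Gene ends took 9.35% at the median score, 12.8% with a window of 500 bp and 16.1% to 24.7% leaving out a library. A CM +Dox CHD7 peak was near 12.1% at the median score, 12.9% at equal length, 12.8% within 500 bp, 49.8% within 5 kb and 16.4% to 21.2% leaving out a library. Depth is unknown, so a missing call is not a measured absence.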

Other observations

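By chromosome, chromosome 5 held 22 lost sites and chromosome 3 held 20. These were 5.03% of 437 and 5.26% of 380 sites that all 6 libraries without CM called. As a share of such sites, chromosome 17 had 5.99% lost and chromosome 8 had 5.88%, against 3.65% over all chromosomes. On chromosome 19 none of 164 such sites was lost, which allows a share of up to 1.83% by counting error alone. That bound does not allow for the choice of this chromosome among all. The chromosomes named were picked for their extreme values, and these values carry no test.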
